A study of Mus musculus with 2 samples.

Results

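The 9 genes described here encode gap junction and related channel proteins of the mouse brain: the connexin genes Gja1, Gjb1, Gjb2, Gjb6, Gjc1, Gjc3 and Gjd2 and the pannexin genes Panx1 and Panx2. They were taken by symbol from a list of family members, without use of their measured values, and are 9 of 55536 annotated genes. Earlier results of these data were known when they were chosen. The material was total RNA from the left side of the cerebral cortex. The animals were B6CASTF1/J females, a cross of C57BL/6J with CAST/EiJ, at an age of 2 months, and the labels name no treatment. There was 1 group of 2 libraries, biological replicates 2 and 1, each made from 300 ng of RNA and holding 32292150 and 31196858 expected counts. Both tissue samples carry the same donor entry in the labels, so the spread between the libraries may be technical, and with 1 group no test and no p-value is given.

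Connexins are membrane proteins that assemble in rings of subunits called hemichannels, and hemichannels of neighbouring cells dock to form gap junctions, through which ions and small metabolites pass. In the cortex, astrocytes are coupled into a network chiefly by Cx43 and Cx30, the products of Gja1 and Gjb6. Oligodendrocytes make Cx32 and Cx29 from Gjb1 and Gjc3, and neurons use Cx36 from Gjd2 in electrical synapses. Pannexins share the topology of connexins but not their sequence, and Panx1 is best known as a membrane channel that releases ATP. In whole-tissue RNA, fewer cells of a type and less RNA per cell cannot be told apart.

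All 9 genes were present at 1 TPM or more in both libraries, where TPM is the length-corrected share of a gene among all transcripts of a library, scaled to a fixed total. Levels are given for replicate 2 and then replicate 1, from tables made from transcriptome alignments unless a value is called read-based, which means from a second deposited quantification of the reads. By mean TPM the order was Gja1, Panx2, Gjb6, Panx1, Gjc3, Gjb2, Gjb1, Gjc1 and Gjd2. Gja1 stood above 94.6% of the 22015 nuclear protein-coding genes and Gjd2 above 45.8%. Of the 8 neighbouring pairs in this order, the ranges of the libraries overlapped for Gjb2 and Gjb1. Gjb1 and Gjc1 overlapped as well in the read-based tables. Panx2 and Gjb6 were close, with a lowest Panx2 level of 50.8 TPM and a highest Gjb6 level of 50.5 TPM.

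**Figure D1:**
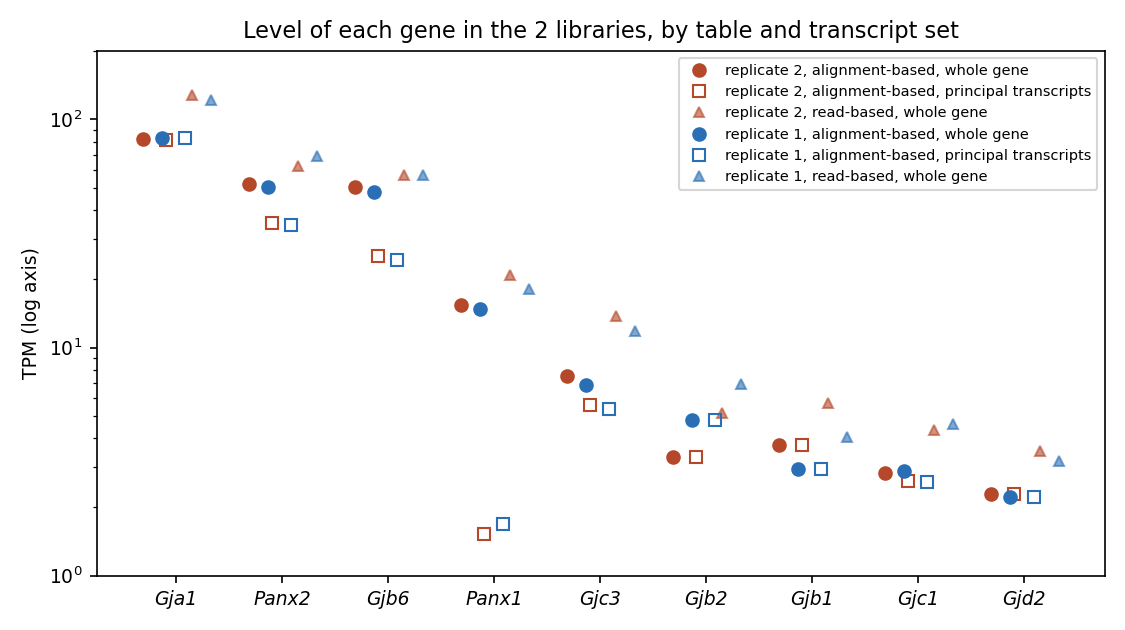
Level of each gene in TPM on a log axis, 1 symbol per library. Filled circles are alignment-based gene values, open squares their principal transcripts alone and triangles read-based gene values, with replicate 2 in red and replicate 1 in blue. Panx1 is the gene with the widest gap between its whole-gene level of 15.1 TPM and its principal transcript at 1.61 TPM.

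Connexin RNA was mostly that of the astrocyte-type genes. The 16 connexin genes reported here summed to 156 and 155 TPM in replicates 2 and 1, and Gja1 alone made up 52.8% and 53.7% of this sum. Gja1, Gjb2 and Gjb6 together held 87.2% and 87.9% of it. Gjb1 and Gjc3, which oligodendrocytes make, together held 7.21% and 6.33%. The 3 pannexin genes summed to 67.3 and 65.5 TPM.

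Gja1 encodes Cx43, the main astrocyte connexin. It had 82.3 TPM in replicate 2 and 83.2 TPM in replicate 1 (82.8 ± 0.594, SD, n = 2), from 5362 and 5057 counts. The libraries lay within a few percent of each other. Its gene (ENSMUSG00000050953.10) spans chromosome 10, 56377330 to 56402513, plus strand, in mm10, and its coding region of 1146 bases lies in 1 exon. The log2 ratio of scaled counts, replicate 2 over replicate 1, was 0.06 with a 95% interval of 0.01 to 0.12, while TPM was lower in replicate 2. The TPM of a gene also depends on the share of the fixed total that other RNAs take, and the scaled counts do not.

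The 2 quantifications gave Gja1 different first exons. In the alignment-based tables Gja1-201 took 99.0% and 99.2% of the gene's TPM, and Gja1-206 had 0 counts in both libraries. In the read-based tables Gja1-206 took 59.9% and 61.9%, and Gja1-201 38.2% and 36.4%. These transcripts share a last exon of 2882 bases that holds the whole coding region and differ in the first exon alone, of 189 bases in Gja1-201 and 300 bases in Gja1-206. The first exon of Gja1-206, 56379088 to 56379387, lies inside Gja1-204, a retained-intron transcript that had 0.79 and 0.63 TPM in the alignment-based tables. The gene-level count of Gja1 does not rest on this choice, but which first exon was used cannot be read from these tables.

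**Figure D2:**
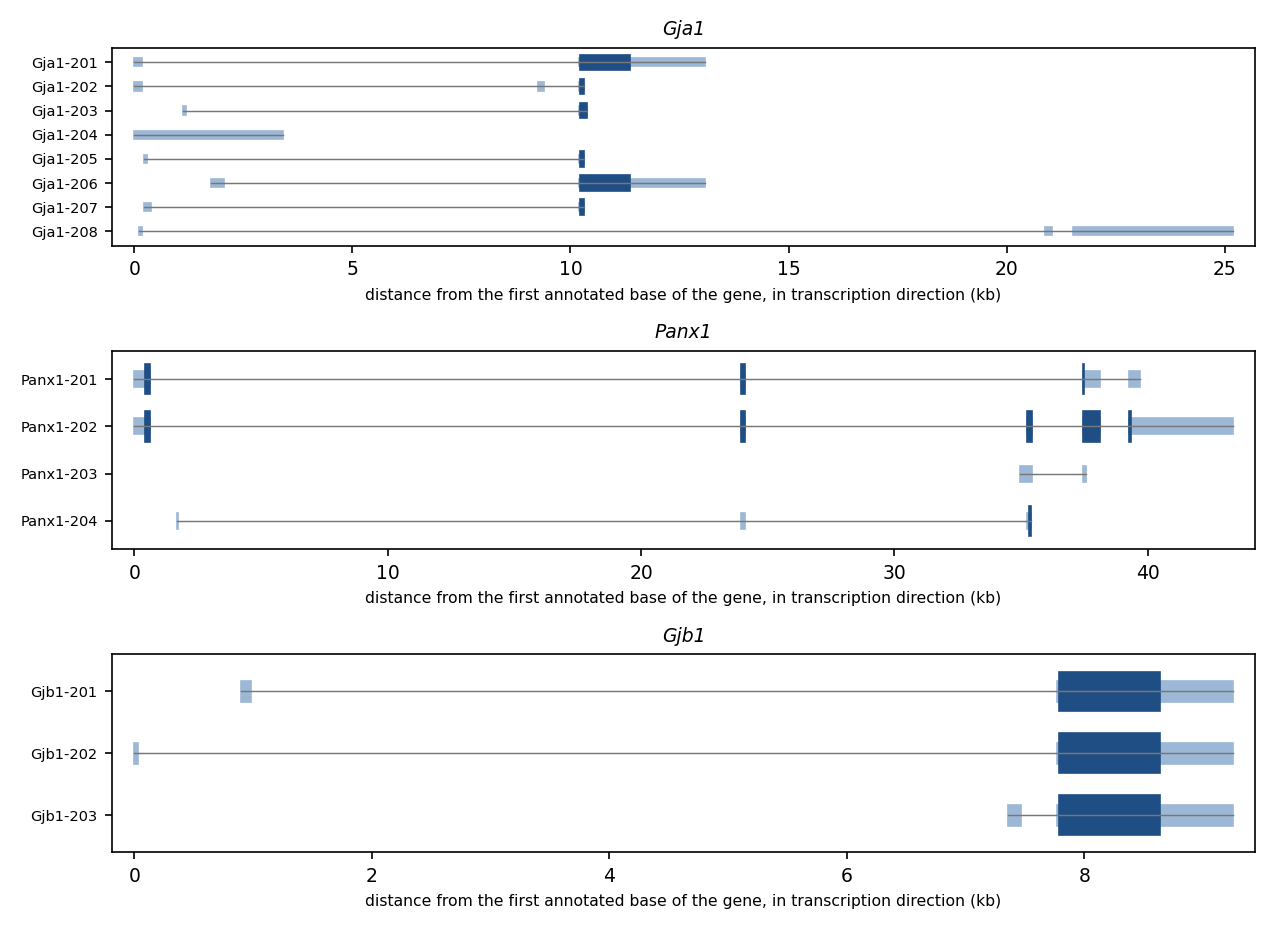
Annotated transcripts of Gja1, Panx1 and Gjb1 along the distance in kb from the first annotated base of each gene, in the direction of transcription. Dark tall boxes are coding sequence, pale boxes the rest of the exons and lines introns. Gja1-201 and Gja1-206 share their coding exon, Panx1-201 skips an exon of Panx1-202 and has a shorter last exon, and the 3 Gjb1 transcripts differ in their first exon.

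Gjb6 encodes Cx30, the second astrocyte connexin, and in humans deletions that reach it are found in hereditary deafness. It had 50.5 TPM in replicate 2 and 48.1 TPM in replicate 1 (49.3 ± 1.67, SD, n = 2), from 1497 and 1373 counts. The levels differed little between the libraries, with a log2 ratio of 0.10 and an upper bound of 0.21. The gene (ENSMUSG00000040055.9) lies at chromosome 14, 57123303 to 57133611, minus strand. Within a library, the TPM of Gjb6 was 0.613 times that of Gja1 in replicate 2 and 0.579 times in replicate 1.

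Much of the Gjb6 TPM belonged to short or unspliced transcripts. The principal coding transcript Gjb6-201 held 73.6% and 72.4% of the gene's counts but 49.6% and 50.4% of its TPM. Gjb6-202, of 887 bases and also classed as coding, held 4.71% and 5.92% of TPM, and 12.6% and 17.8% in the read-based tables. Gjb6-203, a noncoding transcript of 201 bases, held 2.23% and 1.94% of counts and 29.7% and 26.6% of TPM, since TPM divides by length. In the read-based tables Gjb6-203 had 0 counts in both libraries, and Gjb6-201 held 80.2% and 72.3% of TPM. Counting principal transcripts alone, which are those that GENCODE tags as the main coding forms, Gjb6 had 25.1 and 24.2 TPM, and the ratio to Gja1 was 0.308 and 0.294.

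Gjb2 encodes Cx26, made by meningeal cells and some astrocytes, and its mutations are a frequent cause of hereditary deafness in humans. It had 3.31 TPM in replicate 2 and 4.79 TPM in replicate 1 (4.05 ± 1.05, SD, n = 2), from 167 and 226 counts. Replicate 2 was the lower library, with a log2 ratio of -0.46 (95% interval -0.75 to -0.16), or 0.729 times. The gene (ENSMUSG00000046352.7) lies at chromosome 14, 57098600 to 57104702, minus strand, 18.6 kb from Gjb6 with 1 annotated gene, Gm4491, between them. Although neighbours, Gjb6 and Gjb2 stood far apart in level: the TPM of Gjb6 was 15.3 and 10.1 times that of Gjb2. With principal transcripts alone the ratio was 7.57 and 5.06.

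Gjb6 and Gjb2 are also the most alike in sequence of the 36 pairs of these genes by longest identical coding stretch, which bears on whether their reads can be told apart. The first 120 coding bases from GENCODE M21 are shown with capitals at the 95 positions (79.2%) where both have the same base, at chr14:57124683-57124802 for Gjb6 and chr14:57100630-57100749 for Gjb2, both minus strand.
Gjb6: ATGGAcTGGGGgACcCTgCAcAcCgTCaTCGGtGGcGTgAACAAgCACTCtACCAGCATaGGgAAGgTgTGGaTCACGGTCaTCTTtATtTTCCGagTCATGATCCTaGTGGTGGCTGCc
Gjb2: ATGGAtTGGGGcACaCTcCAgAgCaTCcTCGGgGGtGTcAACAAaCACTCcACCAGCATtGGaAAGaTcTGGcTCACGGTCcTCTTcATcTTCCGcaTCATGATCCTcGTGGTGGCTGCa
The differences are scattered through the window, and the longest stretch that the 2 coding regions share exactly was 20 bases. The next pair, Gjb1 and Gjb6, shared 18 bases. The gene-level expected counts of all 9 genes, which the files give to 2 decimals, were whole numbers in both libraries. Most other listed genes had whole counts as well, and the share among all genes was not computed.

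Gjb1 encodes Cx32, which in humans is mutated in X-linked Charcot-Marie-Tooth neuropathy and in the brain is made by oligodendrocytes. It had 3.75 TPM in replicate 2 and 2.93 TPM in replicate 1 (3.34 ± 0.58, SD, n = 2), from 122 and 89 counts. Replicate 2 was the higher library, with a log2 ratio of 0.43 (95% interval 0.03 to 0.84), or 1.35 times. The gene (ENSMUSG00000047797.14) lies at chromosome X, 101376378 to 101385629, plus strand.

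All alignment-based Gjb1 counts were assigned to Gjb1-203, the transcript that starts nearest to the coding region, and 97.9% and 100% of TPM in the read-based tables. Gjb1-201 and Gjb1-202, with other first exons, had 0 alignment-based counts in both libraries. Gjb1-201 had 2.47 read-based counts in replicate 2. The deposited upper bounds in replicate 2 were 1.56 TPM for Gjb1-201 and 1.89 TPM for Gjb1-202. That of Gjb1-203 was 3.57 TPM, below its own level of 3.75 TPM, while in replicate 1 it was 3.05 TPM, above the level of 2.93 TPM. These bounds allow part of the Gjb1 level to come from the other transcripts. In rodents Gjb1 is known to start at a distal promoter in liver and at a proximal one in myelinating cells. The 250 bases before the start of Gjb1-203 are shown beside those before Gjb1-202 because the transcripts share their coding exon and differ in this start, with the motif TATAAA in capitals, from RefSeq promoters on GRCm38.p6, plus strand, chrX:101383482-101383731 and chrX:101376126-101376375. The RefSeq starts lie 4 and 2 bases from the GENCODE starts.
Gjb1-203: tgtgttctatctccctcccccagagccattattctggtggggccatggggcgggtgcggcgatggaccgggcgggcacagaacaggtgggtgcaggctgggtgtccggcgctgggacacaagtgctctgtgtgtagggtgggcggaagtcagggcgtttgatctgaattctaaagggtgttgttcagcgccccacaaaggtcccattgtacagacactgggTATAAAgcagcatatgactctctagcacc
Gjb1-202: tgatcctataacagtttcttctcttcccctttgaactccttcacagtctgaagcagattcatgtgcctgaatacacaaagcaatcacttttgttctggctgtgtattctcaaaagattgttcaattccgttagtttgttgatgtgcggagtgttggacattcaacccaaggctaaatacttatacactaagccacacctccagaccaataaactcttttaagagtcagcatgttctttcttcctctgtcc
The window of Gjb1-203 held 10 CG pairs and 58.4% G and C, and that of Gjb1-202 held 2 CG pairs and 40.4%, where the median of all 32851 RefSeq promoter windows was 6 CG pairs. TATAAA began 29 bases before the RefSeq start of Gjb1-203 and was not among the letters of the Gjb1-202 window on either strand. It occurred on either strand in 12.4% of all windows. The first exons are 107 bases in Gjb1-203 and 35 bases in Gjb1-202, so few reads can tell the transcripts apart.

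Gjc3 encodes Cx29, found in oligodendrocytes and Schwann cells, where it lies at the inner myelin and is not known to form gap junctions. It had 7.51 TPM in replicate 2 and 6.88 TPM in replicate 1 (7.20 ± 0.445, SD, n = 2), from 500 and 443 counts. The log2 ratio was 0.15 (95% interval -0.03 to 0.34). The gene (ENSMUSG00000056966.7) lies at chromosome 5, 137953461 to 137963098, minus strand. Its TPM was 2.00 and 2.35 times that of Gjb1. Gjc3-201, the coding transcript, held 74.8% and 78.1% of TPM, and a retained-intron transcript of 584 bases, Gjc3-202, held 25.2% and 21.9%.

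Gjc3 was the 1 gene of the 9 with stretches much like those of other genes, which may leave its count less certain. Its transcript matched transcripts of 1764 other genes at 90% identity or more over at least 100 bases, the longest match being 511 bases, and no other of the 9 genes had such a match. The read-based tables gave Gjc3 599 and 542 counts and 13.7 and 11.8 TPM, against alignment-based levels of 7.51 and 6.88 TPM. Read-based TPM was the higher for each of the 9 genes, with means of 125 against 82.8 TPM for Gja1. This was not particular to them: Slc1a2 had means of 1019 against 720 TPM and Tjp1 83.2 against 66.6 TPM. The alignment-based counts of Gjc3 were whole numbers, as for the other genes. The effect of the similar stretches on its count was not tested.

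The neuronal Gjd2 was the lowest of the 9. Gjd2 encodes Cx36, the main protein of electrical synapses, which in cortex join inhibitory neurons above all. It had 2.27 TPM in replicate 2 and 2.22 TPM in replicate 1 (2.25 ± 0.0354, SD, n = 2), from 138 and 126 counts. The libraries were close in TPM, and the log2 ratio of scaled counts was 0.11 with an interval of -0.25 to 0.47. The gene (ENSMUSG00000068615.4) lies at chromosome 2, 114009601 to 114013619, minus strand, and has 1 annotated transcript. Its first bases overlap 2 annotated genes named A530058N18Rik on the other strand. The one with 142 and 126 counts overlaps from 114013602 to 114013619 only. The other, with 2 and 0 counts, overlaps from 114013563 to 114013619. Whether strand was used in counting is not known here, so reads of the shared bases may belong to either.

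Gjc1 encodes Cx45, a connexin of vascular smooth muscle, heart and some neurons. It had 2.82 TPM in replicate 2 and 2.88 TPM in replicate 1 (2.85 ± 0.0424, SD, n = 2), from 118 counts in each. The log2 ratio was -0.02 (95% interval -0.40 to 0.36). The gene (ENSMUSG00000034520.14) lies at chromosome 11, 102799579 to 102819700, minus strand. Within a library the TPM of Gjd2 was 0.805 and 0.771 times that of Gjc1. At 118 counts the Gjc1 start site was not resolved: Gjc1-202 held 92.2% and 76.3% of alignment-based TPM but 5.10% and 64.9% of read-based TPM, where Gjc1-201 held 71.0% in replicate 2 and 0.00295% in replicate 1.

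Panx2 was the second highest of the 9 genes. Its product is found chiefly in neurons and mostly inside cells. It had 51.9 TPM in replicate 2 and 50.8 TPM in replicate 1 (51.3 ± 0.757, SD, n = 2), from 2660 and 2409 counts. Replicate 2 was slightly higher, with a log2 ratio of 0.12 (95% interval 0.04 to 0.20). The gene (ENSMUSG00000058441.7) lies at chromosome 15, 89059734 to 89073567, plus strand. The antisense gene 1810021B22Rik overlaps its end and had 4 and 5 counts.

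Panx2-203, the principal transcript, held 95.5% and 96.0% of Panx2 counts and 68.0% and 67.6% of TPM. Panx2-201, a fragment of 355 bases that is also classed as coding, held 3.37% and 3.51% of counts and 30.9% and 31.8% of TPM. Panx2-202 held 1.16% and 0.551% of TPM, and 3.03% and 4.39% in the read-based tables. It has 4 exons and ends at 89069878, where Panx2-203 has 3 exons and ends at 89070907. At the start of exon 2 it also has 24 additional bases that keep the reading frame. These bases, 1 of the differences between the transcripts, are shown in capitals (GENCODE M21, plus strand, ends of the stretch at 89060285 and 89067572 on chromosome 15).
Panx2-202: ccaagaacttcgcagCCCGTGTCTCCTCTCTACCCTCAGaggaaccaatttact
Panx2-203: ccaagaacttcgcagaggaaccaatttact
Panx2-203 was thus the major coding form in both kinds of table and both libraries.

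Panx1 had 15.4 TPM in replicate 2 and 14.7 TPM in replicate 1 (15.1 ± 0.509, SD, n = 2), from 470 and 460 counts, with a log2 ratio of 0.01 (95% interval -0.18 to 0.20). The libraries were close in both TPM and counts. The gene (ENSMUSG00000031934.14) lies at chromosome 9, 15002128 to 15045478, minus strand. Its level as a gene and by its principal coding transcript differed more than for any other of the 9 genes. Panx1-202, the transcript with the full coding region in 5 exons, had 1.53 and 1.69 TPM, or 9.92% and 11.5% of the gene's TPM and 40.1% and 42.3% of its counts. By principal transcripts alone Panx1 was the lowest of the 9, where by gene it was the fourth.

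Most of the other Panx1 TPM was in Panx1-201 and Panx1-204. Panx1-201, which the annotation classes as a target of nonsense-mediated decay, had 5.99 and 6.28 TPM, or 38.8% and 42.7%, and 43.1% and 49.8% in the read-based tables. Panx1-204, a fragment of 357 bases classed as coding, held 42.4% and 38.4% of TPM from 7.86% and 6.46% of counts. It had 0 counts in the read-based tables. Panx1-203, a retained-intron transcript of 575 bases, held 8.82% and 7.41%, and 43.2% and 33.9% in the read-based tables. The TPM of Panx2 was 3.36 and 3.46 times that of Panx1 by gene, and 23.0 and 20.3 times by principal transcripts.

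Panx1-201 lacks exon 3, shown here because its loss shifts the reading frame (221 bases, chr9:15010036-15010256, minus strand, GENCODE M21).
Panx1 exon 3: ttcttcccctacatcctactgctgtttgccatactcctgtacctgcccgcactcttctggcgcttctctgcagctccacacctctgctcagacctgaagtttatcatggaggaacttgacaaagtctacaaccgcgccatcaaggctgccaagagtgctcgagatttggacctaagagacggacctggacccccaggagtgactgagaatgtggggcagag
The joins that follow show the end of exon 2 in lower case, with the start of exon 3 in capitals for Panx1-202 and, for Panx1-201, the first stop codon in frame in capitals.
Panx1-202 join: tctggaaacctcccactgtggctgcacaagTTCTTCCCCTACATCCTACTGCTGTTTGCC
Panx1-201 join: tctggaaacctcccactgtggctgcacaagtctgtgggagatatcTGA
In Panx1-201 the stop codon comes after 15 bases of exon 4. That transcript also has a last exon of 433 bases, against 4090 bases in Panx1-202. The annotation holds no transcript that has exon 3 and the short last exon, so reads assigned to Panx1-201 do not by themselves count skipping of exon 3.

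**Figure D3:**
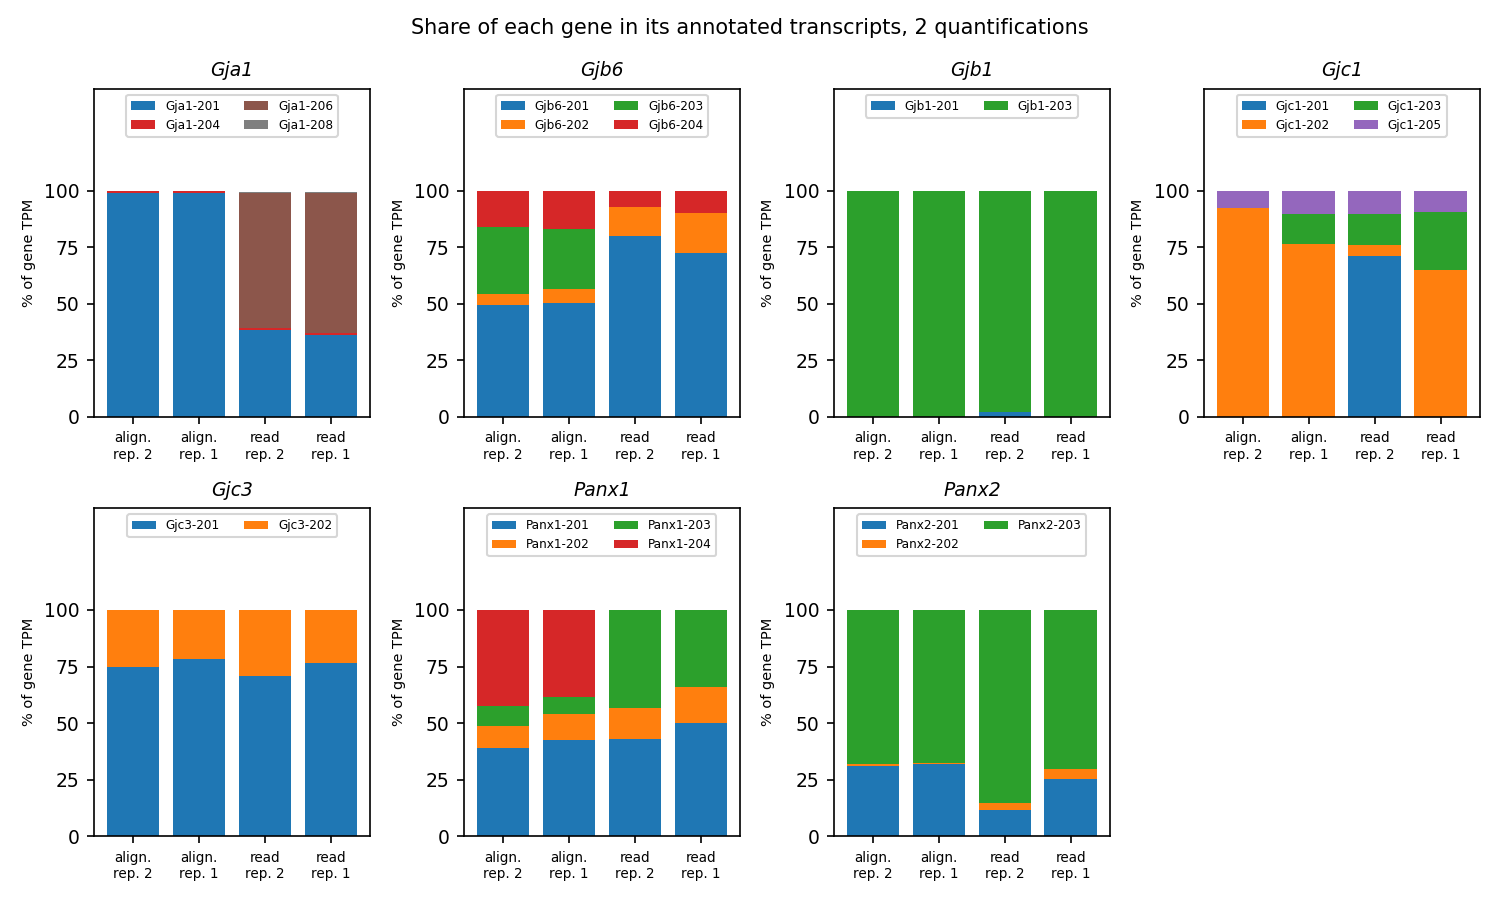
Percent of each gene's TPM in its annotated transcripts, for the genes with more than 1 transcript, in the alignment-based (align.) and read-based (read) tables of replicates 2 and 1. Bars stack transcripts above 0.5% in any table. Gja1 changes from Gja1-201 at 99.0% and 99.2% to Gja1-206 at 59.9% and 61.9% between the tables, while Gjb1 stays with Gjb1-203.

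None of the 9 genes differed between the libraries beyond 2-fold. For a call, the whole 95% interval of the ratio had to lie beyond 2-fold and the 2 counts had to average 10 or more. All 9 genes passed the count filter and 0 were called, where 0.307% of the 18562 genes tested were called, 0.156% higher and 0.151% lower in replicate 2. At a weaker limit, an interval that leaves out equality, 4 of the 9 stood off 0, namely Gja1, Gjb1 and Panx2 higher and Gjb2 lower in replicate 2, where 15.1% of all genes tested did so, 8.17% higher and 6.89% lower. When the libraries were scaled by their totals, Gja1 (-0.02 to 0.09) and Gjb1 (0.00 to 0.82, the lower bound just below 0) no longer left out equality. The share of all genes that left out equality under that scaling was not computed. The median log2 ratio of the 9 genes was 0.10 (range -0.46 to 0.43), and that of all genes tested 0.00. Intervals cover counting error only, and these ratios compare 2 libraries of 1 group.

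Markers of the cell types that make these connexins moved as follows between the libraries. The marker lists were chosen with earlier results of these data known. Of the 18562 genes tested, 9226 had positive log2 ratios, 8.17% had intervals above 0 and 6.89% had intervals below 0. Of 8 astrocyte markers, 7 had positive log2 ratios and 5 had intervals above 0, with a median of 0.08 and a summed level of 1403 and 1431 TPM. Of 8 oligodendrocyte markers, 7 had positive ratios and 5 had intervals above 0, with a median of 0.13 and sums of 766 and 716 TPM, beside the higher Gjb1 of replicate 2. Of 6 fibroblast and meningeal markers, 1 had a positive ratio and 3 had intervals below 0, with a median of -0.24 and sums of 64.1 and 86.7 TPM, beside the lower Gjb2. In that list Igf2 had 28.8 TPM in replicate 2 and 47.5 TPM in replicate 1, while Dcn had 10.7 and 9.03 TPM, with a log2 ratio of 0.34 and an interval above 0 (0.12 to 0.56). Col1a1 had 7.21 and 7.70 TPM, with a ratio of 0.00, and both were named after their values were seen. A negative median was not particular to that list. Of 5 mural (vessel wall) markers, 2 had positive ratios, with a median of -0.17 and a range of -0.41 to 0.21. None of these lists held a gene at 0 counts. The part of cell makeup in the Gjb2 and Gjb1 ratios was not tested.

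**Figure D4:**
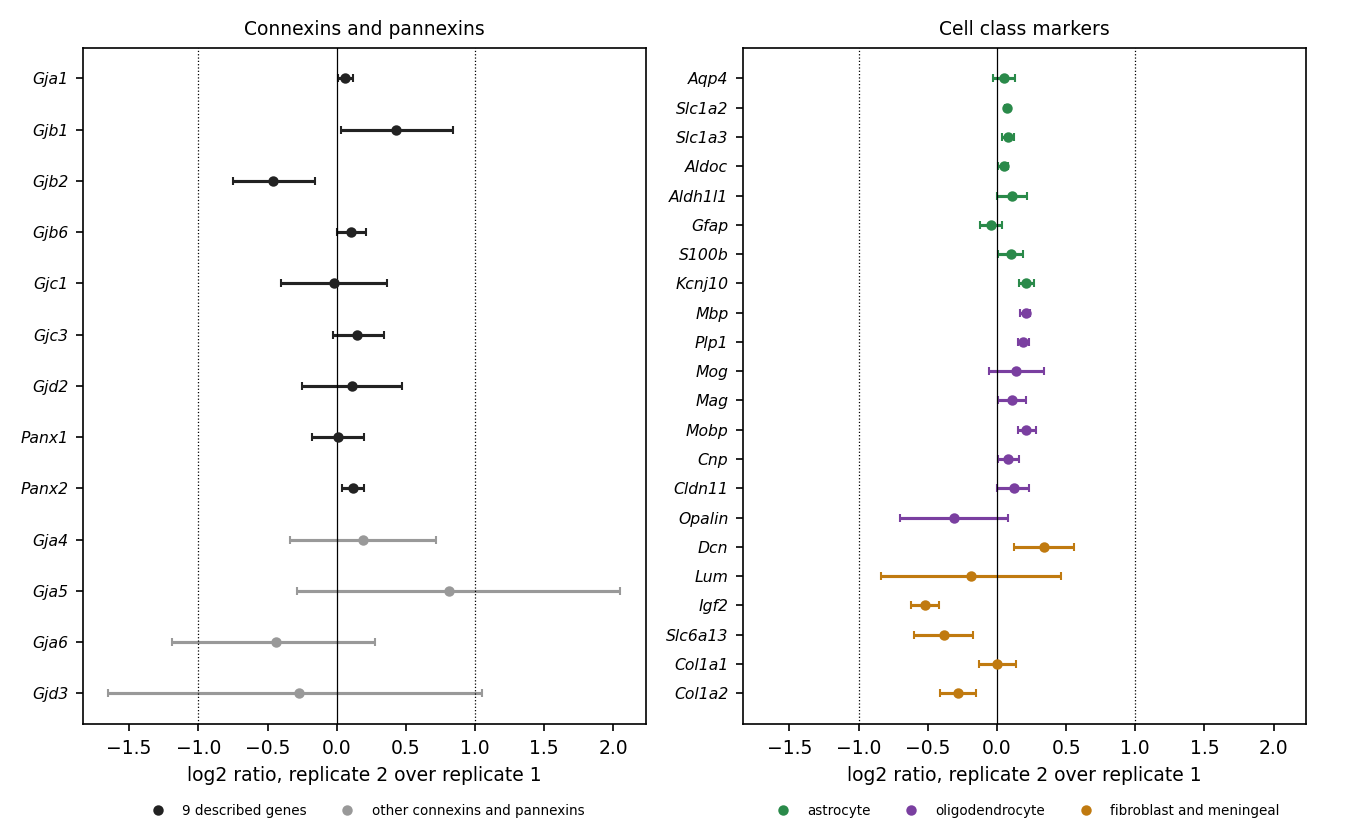
Log2 ratio of scaled counts, replicate 2 over replicate 1, with exact 95% counting intervals, for the connexins and pannexins reported here that passed the count filter (left) and for markers of 3 cell classes (right). Dotted lines mark 2-fold. Gjb2 at -0.46 and Gjb1 at 0.43 are the ends of the range of the 9 genes, and no interval among the 9 lies beyond a dotted line.

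No marker of the other cell classes was at 0 counts in both libraries. Pan-neuronal markers ran from Snap25 at 1306 and 1348 TPM to Rbfox3 at 147.7 and 153 TPM (4 genes, median log2 ratio 0.02), and inhibitory neuron markers from Sst at 187 and 190.1 TPM to Vip at 24.6 and 27.4 TPM (6 genes, 0.00). Astrocyte markers ran from Slc1a2 (709.8 and 729.9 TPM) to Aldh1l1 (28.2 and 29.2 TPM), and oligodendrocyte markers from Mbp (334 and 303 TPM) to Opalin (2.43 and 3.27 TPM). Precursor markers ran from Olig1 (36.2 and 35.5 TPM) to Cspg4 (6.51 and 6.85 TPM; 4 genes, 0.06). Vascular markers ran from Ly6c1 (31.6 and 32.1 TPM) to Kdr (1.97 and 2.40 TPM; 5 endothelial genes, 0.04) and from Vtn (29.6 and 33.7 TPM) to Kcnj8 (1.04 and 0.97 TPM; 5 mural genes, -0.17). Microglial markers ran from Csf1r (30.9 and 30.6 TPM) to Tmem119 (10.8 and 9.61 TPM; 5 genes, 0.03), and Lum was the lowest fibroblast and meningeal marker at 0.78 and 0.94 TPM. In the choroid plexus and ependymal list of 5 genes (median 0.25) Ttr, which encodes a thyroid hormone carrier, had 34.3 TPM in replicate 2 and 6.12 TPM in replicate 1 and was the 1 marker called, while Clic6 had 1.12 and 1.00 TPM.

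Of the 10 other connexin and pannexin genes reported here, Gja4 alone reached 1 TPM in both libraries. Gja4, which encodes the endothelial Cx37, had 1.93 TPM in replicate 2 and 1.79 TPM in replicate 1. Gja6 had 0.69 and 0.99 TPM, Gjd3 0.62 and 0.80 TPM, and Gja5, which encodes the arterial Cx40, 0.30 and 0.18 TPM. The read-based level of Gja5 was higher, at 0.918 and 0.737 TPM. Gja3 had 0.05 and 0.09 TPM, and Gje1 0 counts in replicate 2 and 1 in replicate 1. Gja10, Gjb5, Gjd4 and Panx3 had 0 counts in both libraries, in the alignment-based tables, where 3 counts, the counting limit of a 0, stood for 0.0535 to 0.105 TPM in replicate 2 and 0.0573 to 0.112 TPM in replicate 1. The kind of table matters more than this limit for Gjd4, which had 15 read-based counts in each library, or 0.393 and 0.403 TPM. The deposited upper bounds were also higher than the limit for Panx3, at 0.349 and 0.372 TPM, and for Gja10, at 0.112 and 0.121 TPM. Panx3 is known from bone and skin. Of the 10 genes, 4 passed the count filter and 0 were called.

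The scaffold and trafficking genes reported here were above 1 TPM in both libraries. Tjp1, whose product ZO-1 binds the tail of Cx43, had 65.4 TPM in replicate 2 and 67.8 TPM in replicate 1. Cnst, which encodes the connexin recycling protein consortin, had 15.7 and 15.6 TPM. Both had intervals that held equality, and 0 of 2 were called.

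Other large-pore channels were led by subunits of the volume-regulated anion channel. Lrrc8a, its obligatory subunit, had 26.5 TPM in replicate 2 and 29.5 TPM in replicate 1. Of its partners, Lrrc8b had 38.5 and 39.7 TPM, Lrrc8c 16.0 and 14.3 TPM, and Lrrc8d 15.2 and 18.0 TPM. Lrrc8e had 0 alignment-based counts in replicate 2 and 1 in replicate 1, with upper bounds of 0.383 and 0.424 TPM. Its read-based counts were 12 and 18, or 0.205 and 0.324 TPM. Of the calcium homeostasis modulators, Calhm2 had 3.47 and 4.18 TPM, Calhm5 1.17 and 1.20 TPM, and Calhm1, part of an ATP-releasing channel of taste cells, 0 counts in both libraries, which allows up to 0.119 and 0.127 TPM. Of these 8 genes, 6 passed the count filter and 0 were called, with a median log2 ratio of -0.02.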

How the data were processed

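The authors deposited, per library, expected counts, TPM and credibility bounds on TPM (level not stated) per gene and transcript from transcriptome alignments, and estimated counts and TPM per transcript from the reads, with mm10 and GENCODE M21 as the reference, as the deposited file list of each library states. For the aligner, the quantification and the use of strand, no name or setting is given in the sources used here. Expected counts were rounded and scaled by TMM in edgeR 4.0.16 (R 4.3.3), which set replicate 2 to 1.01 times replicate 1. Log2 ratios used a prior count of 0.5 and exact Clopper-Pearson 95% intervals, and a call needed a mean count of 10. The interval rule was tested on data simulated with counting error alone, so that test does not cover any further spread between libraries. Since PCR copies of a molecule were not told apart, intervals and floors of 3 counts cover counting error only. Transcript matches were found with blastn 2.17.0. Of the 9 genes, 7 matched the RefSeq promoter table. Reads of CAST/EiJ alleles were quantified on the C57BL/6J reference.

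The members and the 15 gene lists (95 genes) were chosen with earlier results of these data known. Named were the listed family, scaffold and large-pore genes, the 3 highest and the lowest of the ATP and adenosine list, and the highest and lowest marker of each cell class by mean TPM, with exceptions stated; some genes of these families are not reported here. Alternatives covered scaling, prior, filter, fold limit, kind of table, each library alone and principal transcripts.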

Additional observations from a re-analysis of the deposited data

How the results depend on the processing

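The 9 genes kept 1 TPM or more in each library and 0 calls under every alternative run for these counts. Among all genes, 29 were called higher and 28 lower in replicate 2. With no filter on low counts 45 were higher, with a mean count of at least 100 there were 6 higher and 6 lower, and with intervals beyond 1.5-fold 46 higher and 43 lower. The count of the 9 genes at 1 TPM was 9 to 9 with either library alone. Scaling by library totals ended the exclusion of equality for Gja1 (lower bound -0.02) and Gjb1 (just below 0.00) and turned the Panx1 log2 ratio to -0.02. Read-based tables raised the TPM of Gja1 to 125 and of Gjc3 to 12.8 and put the Gjb1 and Gjb2 log2 ratios at 0.50 and -0.41. Rescaling to nuclear protein-coding genes put Gja1 at 182 and Gjd2 at 4.95 TPM. Principal transcripts alone, an alternative chosen after seeing the data, put Panx1 at 1.61 TPM and Panx2 over Panx1 at 21.6 instead of 3.41. The leading Gja1 transcript held 99.1% of TPM, and 37.3% in the read-based tables; the cause was not tested. No paired analysis was possible because there is 1 group. Depth limits the ratios of the lowest genes most: at 118 counts in each library the log2 interval of Gjc1 ran from -0.40 to 0.36.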

Other observations

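Genes of extracellular ATP and adenosine signalling, the pathway fed by pannexin and connexin hemichannels, were all detected: 10 of 10 passed the count filter, 9 reached 1 TPM in both libraries and 0 were called (median log2 ratio 0.00). Adora1, an inhibitory adenosine receptor, was highest, with 77.1 TPM in replicate 2 against 81.9 TPM in replicate 1. P2ry12, the ADP receptor of microglia, had 14.6 and 16.6 TPM. Adora2a, a further adenosine receptor, had 7.98 TPM in replicate 2 and 11.5 TPM in replicate 1, with a log2 ratio of -0.30 (95% interval -0.50 to -0.10). P2ry2, an ATP and UTP receptor, was lowest at 0.35 and 0.55 TPM.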
